A study of Mus musculus with 6 samples.

Results

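Clade B serpins, *Sprr1a* and *Gm8113* were followed in primary brite adipocytes after knockdown (KD) of the long noncoding RNA *Ctcflos*. The 9 genes are *Serpinb6b*, *Serpinb9*, *Serpinb9b*, *Serpinb1a*, *Serpinb6a*, *Serpinb8*, *Serpinb2*, *Sprr1a* and *Gm8113*, out of 52089 symbols in the deposited table. They were taken by symbol, and 4 of them, *Serpinb6b*, *Serpinb9*, *Sprr1a* and *Gm8113*, had been picked because they stood among the most raised genes in KD against control. The differences of the 9 genes between KD and control are therefore given as a description, without a test. The gene lists used further below were also drawn up with earlier results of these data known, so their counts are descriptions. The cells came from 129SvEv mice. Primary preadipocytes of the stromal-vascular fraction of the inguinal fat depot went through 2 days of induction and 1 day of differentiation with rosiglitazone, a PPARG agonist that drives browning. Both groups received an LNA gapmer, a chemically locked antisense oligonucleotide that recruits RNase H, at 50 nM by reverse transfection: against *Ctcflos* in the 3 Ctcflos KD libraries, and without a target in the 3 NC ctrl libraries. Donor mice were 5 to 6 weeks old, and cells were harvested 24 h after transfection. The KD rests on a single time point, and the labels do not say whether replicates came from separate cultures, so that p-values measure the spread between these libraries only.

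Serpins are protease inhibitors that work as a bait. A protease cuts the exposed reactive centre loop of the serpin, the loop inserts into the central sheet of the protein, and the protease stays trapped in a covalent complex. Clade B serpins lack a classical secretion signal and mostly stay inside the cell, where they protect it from its own lysosomal proteases or from granule proteases of immune cells. SERPINB9 inhibits granzyme B, SERPINB1 inhibits neutrophil elastase, cathepsin G and proteinase 3, SERPINB6 inhibits cathepsin G, SERPINB8 can inhibit furin, and SERPINB2, also called plasminogen activator inhibitor 2, inhibits urokinase. In mice, single human genes of this clade correspond to tandem families of close copies. *Sprr1a* is not a serpin: it encodes a small proline-rich precursor of the cornified envelope of keratinocytes, and is known from injured neurons and stressed heart muscle as well. *Gm8113* is a predicted gene with no role assigned here.

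The stretches below encode the reactive centre loop in the longest coding transcript of Gencode vM21 (GRCm38), with 22 codons each, and the capitals mark the 6 codons of the hinge that lets the loop insert. They are shown because the hinge is nearly the same in all of them, whereas the codons after it, which hold the bait for the protease, differ between copies as close as *Serpinb9* and *Serpinb9b*.
Serpinb6b: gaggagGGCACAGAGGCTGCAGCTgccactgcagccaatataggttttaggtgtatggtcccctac
Serpinb6a: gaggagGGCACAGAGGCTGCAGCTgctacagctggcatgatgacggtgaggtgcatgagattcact
Serpinb9: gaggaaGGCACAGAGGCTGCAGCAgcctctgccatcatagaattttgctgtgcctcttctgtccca
Serpinb9b: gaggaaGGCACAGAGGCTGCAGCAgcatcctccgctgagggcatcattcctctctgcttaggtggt
Serpinb9e: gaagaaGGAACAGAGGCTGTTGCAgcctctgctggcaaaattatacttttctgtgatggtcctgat
Serpinb8: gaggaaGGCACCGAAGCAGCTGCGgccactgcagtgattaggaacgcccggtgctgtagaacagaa
Serpinb1a: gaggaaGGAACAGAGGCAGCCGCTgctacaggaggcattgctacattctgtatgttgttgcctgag
Over the whole coding sequence, *Serpinb9* and *Serpinb9b* were 85.1% identical and *Serpinb6a* and *Serpinb6b* 81.1%, while *Serpinb6b* and *Serpinb9* were 65.3% identical. This bears on the counting of reads. For *Serpinb6b*, *Serpinb6a*, *Serpinb9*, *Serpinb9b*, *Serpinb8*, *Serpinb2* and *Sprr1a*, no 75-base stretch of the longest coding transcript occurred in a transcript of another gene. For *Serpinb1a* the share was 0.380%, all with *Serpinb1b*. Other transcripts of these genes were not searched in this way, although the values are means over all accessions. A transcript of *Serpinb2* held 11.4% of the 75-base stretches of *Serpinb10*, so that these genes may share reads. *Serpinb10* was much the weaker of them (values below), so this bears mainly on *Serpinb10*. *Gm8113* is less certain, since 26.0% of the 75-base stretches of its transcript occur in other genes, among them *Zfp975*, and 2.49% of the 150-base stretches.

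The authors gave expression as RPKM, a read count divided by transcript length in kilobases and by library depth, for the transcript accessions of each gene, and the values below are means over the accessions of a gene. The depth recovered from the low values ranged from 60.7 to 79.2 mio reads per library. The paper names a lower approximate number of paired-end reads per sample, and whether both reads of a pair were counted is not given. *Ctcflos*, listed as *1300015D01Rik*, had 0.0969, 0.0705 and 0.210 RPKM in the KD libraries and 0.748, 0.751 and 0.840 RPKM in the controls, and 16.1% was left (log2 fold change -0.66 ± 0.0840 SE). Its limma fit used no filter, as its mean was under 1 RPKM, gave an adjusted p of 0.025 (0.0097 to 0.13 with single libraries left out, and under the threshold only without KD replicate 3) and called 4.71% of all genes in either direction. Among 11701 genes with a mean of at least 1 RPKM, limma called 24.0% at an adjusted p under 0.05, 11.5% higher and 12.4% lower in KD. Fold changes are on the scale of log2(RPKM + 1), on which changes of weakly expressed genes look smaller than they are. Because these are bulk libraries, a change in the number of cells of a type and a change of RNA per cell cannot be told apart.

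In control cells, the 9 genes covered a wide range of levels. *Serpinb6a* was the most abundant with 32.6 ± 1.44 RPKM (SD, n = 3), followed by *Serpinb9* with 11.3 ± 0.525 RPKM. *Gm8113* had 4.89 ± 1.15 RPKM and *Serpinb8* 3.89 ± 0.290 RPKM, and the ranges of these neighbours in the order overlapped. *Serpinb9b* followed with 2.69 ± 0.589 RPKM. *Serpinb6b*, with 1.61 ± 0.447 RPKM, and *Serpinb1a*, with 1.505 ± 0.144 RPKM, overlapped too, and so did *Sprr1a*, with 0.473 ± 0.136 RPKM, and *Serpinb2*, with 0.444 ± 0.0518 RPKM, at the bottom. After KD, *Serpinb9* had the highest mean with 56.5 ± 20.6 RPKM, though its range overlapped that of *Serpinb6a*, with 37.2 ± 9.02 RPKM. *Serpinb6b*, with 12.9 ± 3.41 RPKM, was above *Serpinb8*, with 5.23 ± 0.737 RPKM, in every KD library, while *Sprr1a*, with 7.10 ± 3.66 RPKM, overlapped *Serpinb8*.

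**Figure D1:**
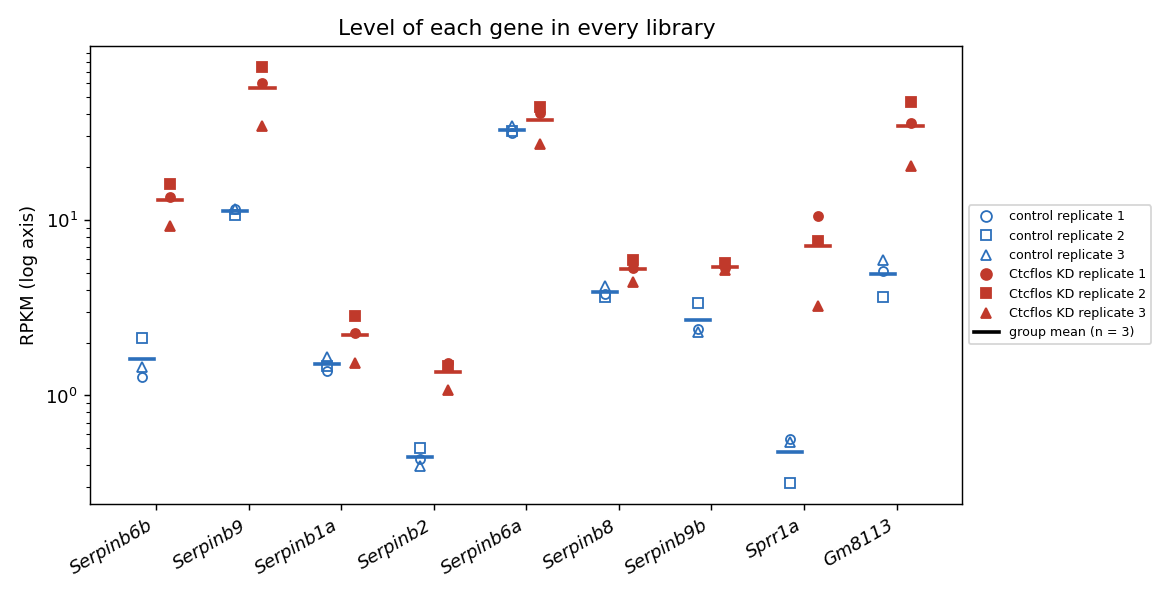
RPKM of each gene (log axis) in the 3 control libraries (open blue symbols) and the 3 Ctcflos KD libraries (filled red symbols), with lines at the group means and 1 symbol shape per replicate number. The groups are apart in 7 of 9 genes and overlap in *Serpinb1a* and *Serpinb6a*, and KD replicate 3 (triangle) is the lowest KD library in all 9.

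The granzyme B inhibitor *Serpinb9* and its neighbour *Serpinb6b* on chromosome 13 were the most raised of the serpins chosen. *Serpinb9* (chr13:33003250-33017957, plus strand, GRCm38, protein coding) had 60.6, 74.7 and 34.2 RPKM in the KD libraries and 11.6, 10.7 and 11.5 RPKM in the controls. The controls lay close together, and even the lowest KD library was about 3.03 times their mean. The ratio of the means was 5.01 (log2 fold change 2.16, standard error 0.254), which was the 5th highest log2 fold change of all genes tested. On its Ensembl transcript with a known length, these values stand for 6460 to 17045 reads in KD and 2224 to 2810 reads in control libraries, so that counting error is small.

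*Serpinb6b* (chr13:32965209-32979067, plus strand), which lies next to *Serpinb9*, was measured at 13.5, 16.02 and 9.27 RPKM in KD and at 1.27, 2.12 and 1.45 RPKM in control libraries. Every KD library was above every control. Its ratio of 8.02 was the largest among the serpins chosen (log2 fold change 2.40, standard error 0.199, rank 3 of all genes tested), from 1154 to 2432 reads in KD and 186 to 343 reads in controls on its Ensembl transcript. *Serpinb9b* (chr13:33027416-33041884, plus strand), the closest relative of *Serpinb9* among the 9 genes, was raised less, with 5.32, 5.70 and 5.19 RPKM in KD and 2.40, 3.37 and 2.31 RPKM in control libraries. The groups were apart, and the KD libraries lay close together, with a coefficient of variation of 4.90%, against 36.4% in *Serpinb9* and 26.4% in *Serpinb6b*. Its ratio was 2.01 (log2 fold change 0.80, standard error 0.125, rank 274).

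The other serpins of the group differed less between KD and control. *Serpinb6a* (chr13:33917918-34002794, minus strand), the abundant cathepsin G inhibitor, had 40.5, 44.1 and 27.0 RPKM in KD and 31.4, 32.3 and 34.2 RPKM in control libraries. KD replicate 3 lay below all controls and the other KD libraries above them, and the ratio of the means was 1.14 (log2 fold change 0.16, standard error 0.184). *Serpinb1a* (chr13:32842092-32851185, minus strand), the inhibitor of neutrophil proteases, had 2.26, 2.84 and 1.53 RPKM in KD and 1.38, 1.47 and 1.66 RPKM in control libraries. Here too KD replicate 3 fell into the range of the controls, and the ratio was 1.47 (log2 fold change 0.34, standard error 0.151).

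On chromosome 1, *Serpinb8* (chr1:107590006-107610484, plus strand) was measured at 5.29, 5.93 and 4.46 RPKM in KD and 3.80, 3.64 and 4.21 RPKM in control libraries. The groups did not overlap but came close, with a ratio of 1.35 (log2 fold change 0.34, standard error 0.115). *Serpinb2* (chr1:107511423-107535478, plus strand), the urokinase inhibitor, had 1.52, 1.46 and 1.08 RPKM in KD and 0.434, 0.5002 and 0.398 RPKM in control libraries. Every KD library was at least 2.42 times the control mean, and the ratio of the means was 3.05. Its mean of 0.899 RPKM over the 6 libraries is below the filter, and without the filter its log2 fold change was 0.70 (standard error 0.107).

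*Sprr1a* (chr3:92483952-92485895, minus strand) had the largest ratio of the 9 genes, from a low level. It was measured at 10.5, 7.55 and 3.25 RPKM in KD and 0.564, 0.317 and 0.539 RPKM in control libraries. All controls were below 1 RPKM, so the gene passed the filter on low values through the KD libraries alone, and the KD libraries were spread over a range wider than that of any other of the 9 genes relative to their mean (coefficient of variation 51.5%). The ratio of the means was 15.0 (log2 fold change 2.35, standard error 0.316, rank 4). *Gm8113* (chr14:43925390-43933411, plus strand, annotated as protein coding) had 35.9, 47.0 and 20.2 RPKM in KD and 5.14, 3.65 and 5.90 RPKM in control libraries. The groups were far apart, with a ratio of 7.03 and a log2 fold change of 2.53 (standard error 0.287), the 2nd highest of all genes tested. It rests on 1 GenBank clone in the table, and reads of genes that share its sequence may be included.

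The promoter of *Sprr1a* is shown because its gene had the largest of the 9 ratios. The 250 bases before the RefSeq start (GRCm38.p6, chr3:92485882-92486131, read on the minus strand) are printed with the matches in capitals.
Sprr1a: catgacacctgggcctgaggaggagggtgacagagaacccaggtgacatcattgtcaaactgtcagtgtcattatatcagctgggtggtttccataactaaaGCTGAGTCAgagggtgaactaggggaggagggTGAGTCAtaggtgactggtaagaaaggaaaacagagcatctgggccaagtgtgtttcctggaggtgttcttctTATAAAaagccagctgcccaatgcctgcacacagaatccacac
The capitals mark AP-1 letters (TGACTCA) at 2 places, the core of the antioxidant response element (TGACNNNGC) overlapping the first of them, and a TATA box (TATAAA), each searched on both strands. AP-1 letters were found in 4.46% of the 32851 RefSeq promoters of this length, the antioxidant core in 10.2% and TATAAA in 12.4%. Of the 7 genes with a promoter in the table, *Serpinb8* also held AP-1 letters, *Serpinb6a* the antioxidant core and *Serpinb2* a TATA box. The core of an interferon response element (GAAANNGAA, in 7.13% of all promoters) was found in *Serpinb9* and *Serpinb6a*, and STAT letters (TTCNNNGAA, 7.02%) in *Serpinb2* and *Serpinb6a*. The windows of *Serpinb6b* and *Serpinb9b* held none of the letters searched, and NF-kB letters (GGGNNTTCC, 4.98%), C/EBP letters (TTGCGCAA, 0.164%) and the core of the PPAR response element (GGTCANAGG, 1.43%) were found in none of the 7. *Serpinb2* and *Serpinb6a* had separate windows for alternative starts, and a match in any window was counted for the gene, while the shares are per promoter. In *Serpinb6a* the antioxidant core lay in another window than the STAT and interferon letters. A match is a description of the letters and not a bound site.

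Of the 8 genes that passed the filter, 5 were called higher, 0 lower and 3 were not called, beside 11.5% called higher among all genes tested; because the genes were chosen on this contrast, nothing is read from these counts. Their median log2 fold change was 1.48, against 0.028 over all genes tested. For the same reason, nothing is read from this median or from the count that follows. Every KD library was above every control in 6 of these 8 genes, which was the case for 22.9% of all genes with a mean of at least 1 RPKM, and in *Serpinb2*. Without KD replicate 3, all 8 would be called higher, and without any other library 5.

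KD replicate 3 was the lowest of the KD libraries in 9 of 9 genes, and it was the KD library with the most *Ctcflos* left. The same was true of 81.4% of the genes called higher and of 45.6% of all genes tested. In this library *Sprr1a* reached 6.86 times the control mean, against 22.2 and 15.9 times in KD replicates 1 and 2. *Gm8113* reached 4.14 times, against 7.33 and 9.61 times, and *Serpinb6b* 5.74 times, against 8.39 and 9.92 times. In *Serpinb9b* the 3 KD libraries hardly differed, with 1.97, 2.12 and 1.93 times the control mean. Whether the remaining *Ctcflos* or another property of the library goes with the lower ratios was not tested.

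**Figure D2:**
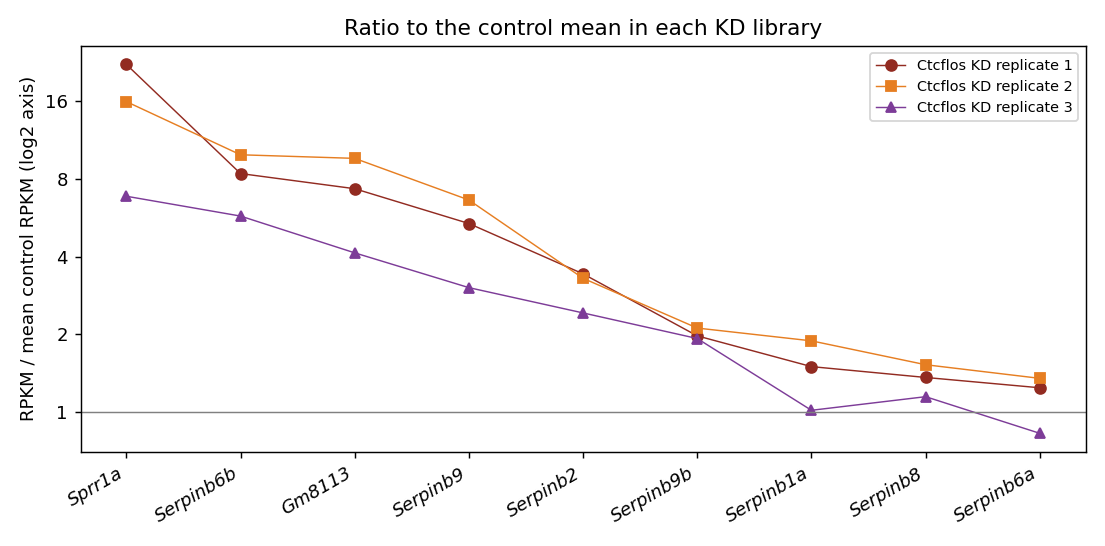
RPKM in each Ctcflos KD library divided by the mean of the 3 controls (log2 axis), 1 line per KD library, genes ordered by the ratio of the group means; the grey line is the control mean. KD replicate 3 is the lowest in every gene, at 6.86 in *Sprr1a* and below 1, at 0.828, in *Serpinb6a*.

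The accessions of a gene had much the same ratio in most of the genes, as they share reads. The ratio of KD to control was between 7.95 and 8.10 over the 5 accessions of *Serpinb6b*, between 4.96 and 5.10 over the 5 of *Serpinb9*, between 2.00 and 2.01 over the 4 of *Serpinb9b*, between 1.45 and 1.49 over the 6 of *Serpinb1a*, between 1.31 and 1.39 over the 9 of *Serpinb8* and 15.0 in both of *Sprr1a*. *Serpinb6a* had 21 accessions between 0.564 and 2.34, and both ends are Ensembl transcripts with at most 17 reads in a library. Its 4 curated RefSeq mRNAs all had a ratio of 1.14. One GenBank clone of *Serpinb6a* went the other way, with 2.62, 2.80 and 3.18 RPKM in KD and 4.81, 4.12 and 4.19 RPKM in control libraries, without overlap. In *Serpinb2*, 4 accessions had a ratio of 2.97 and a short Ensembl transcript 5.17.

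Clade B genes that were not chosen are given here together with the chosen ones along the chromosome. The cluster on chromosome 13 spans 1161 kb and has 15 *Serpinb* genes in the table. From *Serpinb6b* to *Serpinb9g*, 9 of these genes stand in a row, *Serpinb6b*, *Serpinb9*, *Serpinb9b*, *Serpinb1b*, *Serpinb9c*, *Serpinb9d*, *Serpinb9e*, *Serpinb9f* and *Serpinb9g*, and in each of them every KD library was above every control. The ends of the row were set by this criterion, and *Serpinb6b* and *Serpinb9* had been picked for their rise, so the row is a description. It counts *Serpinb* symbols only. *Gm11397*, a protein-coding gene that shares sequence with *Serpinb9d* to *Serpinb9g*, lies between *Serpinb9f* and *Serpinb9g* and was listed at 0 in all libraries. On both sides, *Serpinb1a*, *Serpinb1c* and *Serpinb6a* overlapped between groups, *Serpinb6d* and *Serpinb6e* were listed at 0, and *Serpinb6c*, at 0.0566 RPKM in KD and 0.0143 RPKM in control libraries, also had every KD library above every control. Below the filter, every KD library was above every control in 11.8% of all genes with a mean above 0. On chromosome 1, 12 *Serpinb* genes are in the table, of which 6 were listed at 0 and only *Serpinb2* and *Serpinb8* had a mean of at least 0.1 RPKM.

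**Figure D3:**
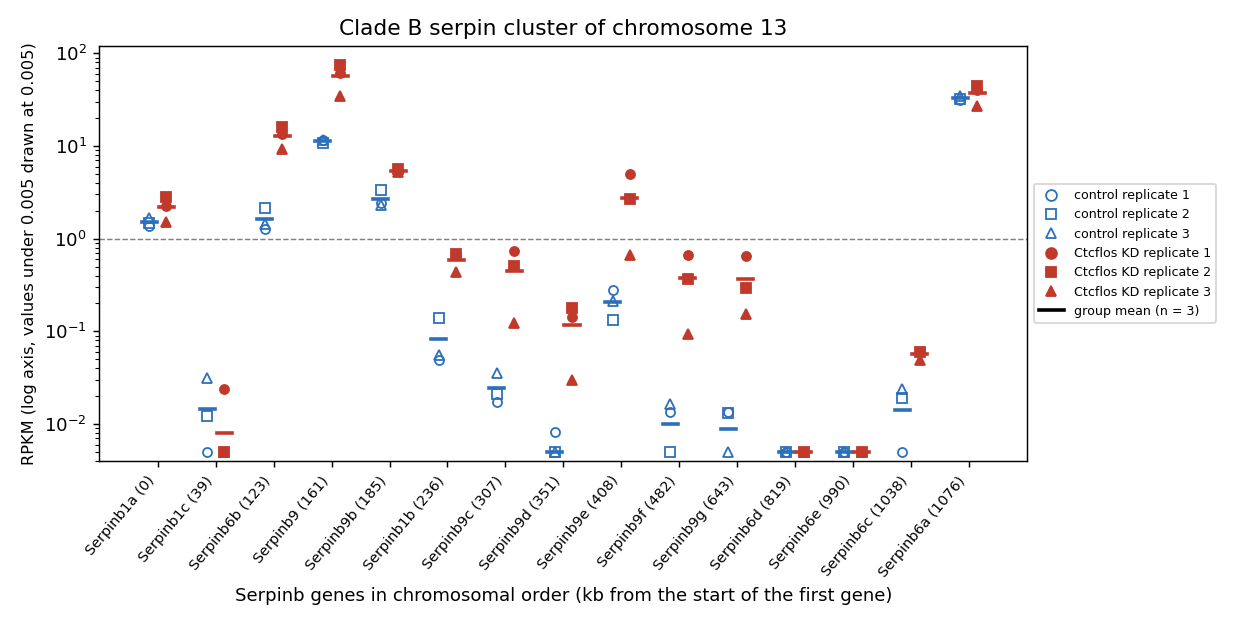
RPKM (log axis) of the 15 *Serpinb* genes of chromosome 13 in chromosomal order, with the distance from the first gene in kb in parentheses, in control (open blue) and Ctcflos KD libraries (filled red); lines are group means, values under 0.005 are drawn at 0.005, and the dashed line is the filter of 1 RPKM. The 9 genes from *Serpinb6b* to *Serpinb9g* have every KD library above every control, and the ends of this row were set by that criterion.

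Of the 20 clade B serpins that were not chosen, 8 were listed at 0 in all libraries, 11 were detected below the filter and 1 was tested. In 7 of the 11, the lowest KD library was above the highest control, beside 11.8% of all genes with a mean above 0 below the filter. The weakest of the 7 was *Serpinb10* on chromosome 1, at 0.0128 RPKM in KD and 0 in control libraries. Its value may include reads of *Serpinb2*, which shares 11.4% of its 75-base stretches. *Serpinb9e*, a copy of *Serpinb9* in the same cluster, had 4.999, 2.65 and 0.668 RPKM in KD and 0.2803, 0.131 and 0.215 RPKM in control libraries. Its controls were all below 1 RPKM, so it passed the filter through the KD libraries alone, and its log2 fold change of 1.46 ± 0.388 SE (limma adjusted p = 0.032) is given as a description. Without the filter it was not called (limma adjusted p = 0.092). With single libraries left out, its adjusted p from limma ranged from 6.1e-04 without KD replicate 3 to 0.098 without NC ctrl replicate 3, it was not called without KD replicate 2 or any one control, and without KD replicate 1 its mean fell below the filter. Part of its reads could come from other copies, as 17.5% of its 75-base stretches occur in another gene. That share was 65.5% for *Serpinb9f*, which had 0.379 RPKM in KD and 0.01001 RPKM in control libraries, and 44.9% for *Serpinb9g*, with 0.367 and 0.00882 RPKM, the 2 being 98.7% identical in their coding sequence. *Serpinb1b*, at 0.595 RPKM in KD and 0.0818 RPKM in control libraries, shares only 0.986% of its stretches. *Serpinb9c* shares 17.8% with *Gm11385*, and *Serpinb9d* shares 16.75% with *Serpinb9e* and other genes of the cluster. The values of these copies are therefore not all separate measurements.

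The genes around the serpin clusters were called about as often as all genes. Over all genes tested, 24.0% were called in either direction, 11.5% higher and 12.4% lower. Of 25 neighbours on chromosomes 13 and 1 in the table, 12 were tested, 0 were called higher and 3 were lower. They were *Exoc2*, a subunit of the exocyst (log2 fold change -0.44, adjusted p = 0.013 from limma), *Nqo2*, a quinone reductase (-0.41, adjusted p = 0.017), and *Pign*, an enzyme of GPI anchor synthesis (-0.34, adjusted p = 0.048). At an unadjusted p under 0.05 from limma, 1 were higher and 3 lower. The share of all genes at an unadjusted p under 0.05 was not taken, here or for the lists below. The most abundant neighbours were *Tubb2a* (log2 fold change -0.066, adjusted p = 0.72) and the proteasome chaperone *Psmg4* (0.43, adjusted p = 0.24). The number called was 5 without KD replicate 3, 1 without KD replicate 2 and 0 without NC ctrl replicate 1 or 3. Of 10 neighbours detected below the filter, 3 had every KD library below every control and 0 had every KD library above. The share with every KD library below was not taken over all genes. *Gmds*, on chromosome 13, was among the 3, with 0.105, 0.214 and 0.272 RPKM in KD and 0.883, 0.966 and 0.866 RPKM in control libraries.

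Serpins of other clades, which are mostly secreted, were lower in KD where they were called. Of 36 in the table, 8 were tested, 0 were called higher and 4 were lower, beside 11.5% and 12.4% of all genes tested, and at an unadjusted p under 0.05 from limma 0 were higher and 4 lower. The acute phase antiproteases *Serpina3n* (log2 fold change -0.94, adjusted p = 0.0077 from limma) and *Serpina3m* (-0.47, adjusted p = 0.017), the thrombin and urokinase inhibitor *Serpine2* (-0.50, adjusted p = 0.022) and the collagen chaperone *Serpinh1* (-0.47, adjusted p = 0.048) fell. *Serpina3n* was called with every library left out (limma adjusted p up to 0.0496). *Serpinh1* lost its call with any single library left out (limma adjusted p 0.051 to 0.18), and *Serpina3m* reached 0.086 and *Serpine2* 0.074 without NC ctrl replicate 3. *Serpina3n* was measured at 36.6, 46.3 and 36.7 RPKM in KD and 73.1, 71.3 and 87.8 RPKM in control libraries, without overlap. The number called was 2 without KD replicate 1 or 2 or NC ctrl replicate 2, and 1 without NC ctrl replicate 1 or 3. Of 19 detected below the filter, 3 had every KD library above every control, beside 11.8% of all such genes. In 1 every KD library was below every control. *Serpina3h*, annotated as a pseudogene, was among the 3, with 1.25, 1.33 and 0.925 RPKM in KD and 0.183, 0.350 and 0.238 RPKM in control libraries.

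The proteases that clade B serpins can meet were looked at next. Of 30 genes in a list of granzymes, neutrophil and mast cell proteases, caspases, cathepsins, plasminogen activators and the urokinase receptor, 7 were listed at 0, 13 were tested, 2 were higher and 1 was lower, beside 24.0% called in either direction over all genes tested. *Plaur*, the urokinase receptor, rose from 0.843, 1.40 and 1.05 RPKM in controls to 6.49, 6.26 and 3.70 RPKM in KD (log2 fold change 1.61 ± 0.189 SE, limma adjusted p = 0.0037). *Casp8*, the initiator caspase of death receptors, rose (0.35, adjusted p = 0.037), and the lysosomal protease *Ctsh* fell (-0.51, adjusted p = 0.036). *Ctsb* (log2 fold change -0.11, adjusted p = 0.65) and *Ctsl* (0.42, adjusted p = 0.15), the most abundant cathepsins of the list, were not called. Without KD replicate 3, 9 genes of the list were called, and without any other library 1, *Plaur*. The adjusted p from limma reached 0.15 for both *Casp8* and *Ctsh* without NC ctrl replicate 3.

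The *Sprr1a* product belongs to the cornified envelope of skin, and most other genes of this structure were not detected. Of 56 such genes in the table, 34 were listed at 0 and 5 were tested, with 0 called by limma, 1 higher and 0 lower at an unadjusted p under 0.05, and 3 called without KD replicate 3. The most abundant were the calcium-binding *S100a6* (log2 fold change -0.031, adjusted p = 0.90) and *S100a10* (0.47, adjusted p = 0.072). Among 17 genes detected below the filter, 5 had every KD library above every control, beside 11.8% of all genes with a mean above 0 below the filter. They were *Ivl*, *Evpl*, *Dsp*, *Sprr1b* and *Sprr2k*, which were named after their values were seen. All were weak, and *Dsp* had means of only 0.0282 RPKM in KD and 0.00692 RPKM in control libraries. *Ivl*, the envelope protein involucrin, had 0.389, 0.278 and 0.427 RPKM in KD and 0.0202, 0.0564 and 0.0293 RPKM in control libraries, and *Sprr1b*, the neighbour of *Sprr1a* in the family, had 0.0969, 0.0975 and 0.120 RPKM in KD and was listed at 0 in all controls.

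*Sprr1a* is known to be induced by cytokines of the gp130 receptor and by injury. The list of gp130 genes was drawn up with earlier results of these data known, and its counts are a description. Of 20 genes of the gp130 pathway, 14 were tested, 4 were higher and 4 lower, beside 11.5% and 12.4% over all genes tested. The ligands *Clcf1* (log2 fold change 0.92, adjusted p = 0.017 from limma) and *Il6* (0.85, adjusted p = 0.047) rose, whereas the oncostatin M receptor *Osmr* (-0.88, adjusted p = 0.0071) and the kinase *Jak1* (-0.72, adjusted p = 0.013) fell. The shared receptor *Il6st* (-0.29, adjusted p = 0.085) and *Stat3* (-0.21, adjusted p = 0.29) were not called. *Il6* was called only without KD replicate 3 (adjusted p from limma 0.0014 to 0.15 over the 6 fits). The number called was 1, *Osmr*, without NC ctrl replicate 1 or 3, and 5 to 8 without another library, with *Il6* at 5.01, 7.08 and 2.64 RPKM in KD and 1.76, 2.08 and 2.51 RPKM in controls.

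Genes known from injured and regenerating tissue included 8 that rose, in a list drawn up with earlier results of these data known. Nothing is read from its counts for that reason. Of 21 in the list, 11 were tested, 8 were called higher and 0 lower (at an unadjusted p under 0.05 from limma 11 and 0), beside 11.5% called higher over all genes. They included *Plaur*, the AP-1 subunit *Jun* (log2 fold change 1.42, adjusted p = 0.019 from limma), the stress factor *Atf3* (0.98, adjusted p = 0.027) and *Sox4* (0.77, adjusted p = 0.0044). *Jun* was measured at 22.0, 18.7 and 8.55 RPKM in KD and 5.77, 3.71 and 6.06 RPKM in control libraries, without overlap and with KD replicate 3 the lowest of the KD libraries, as in the 9 genes. *Timp1* (0.48, adjusted p = 0.12) and *Klf6* (0.58, adjusted p = 0.11) were not called. *Sox4* and *Plaur* were called with every library left out, whereas *Jun* and *Atf3* were called only without KD replicate 3, with adjusted p from limma up to 0.067 and 0.093 otherwise. The list's count depended on the libraries, with 10 called without KD replicate 3, 4 without NC ctrl replicate 2 and 2 without any other.

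**Figure D4:**
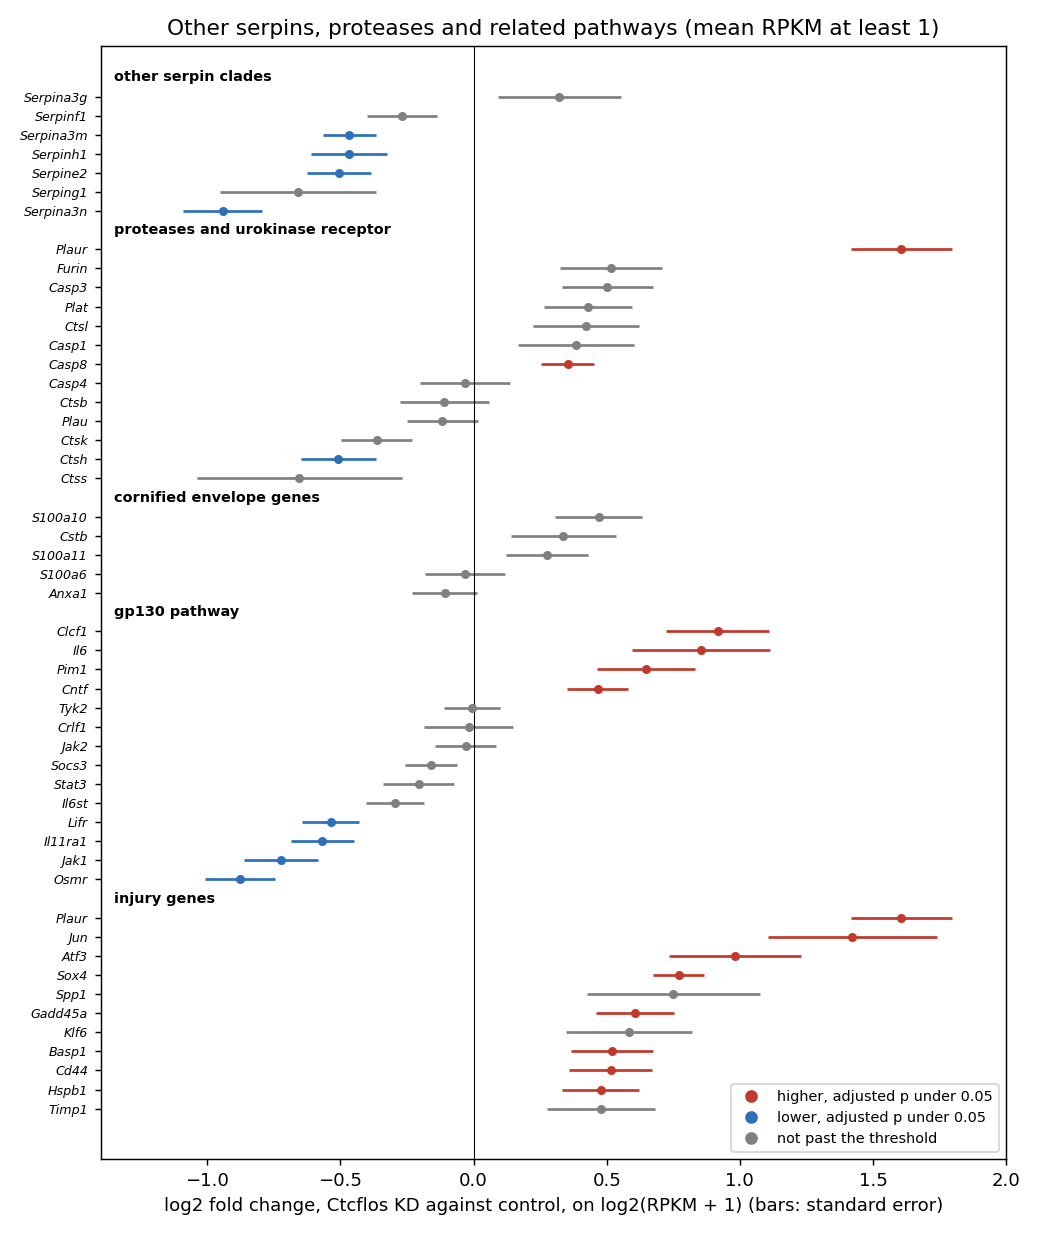
Log2 fold change of Ctcflos KD against control on the log2(RPKM + 1) scale, with standard errors, for the tested genes of 5 lists, except 1 serpin that is not shown: serpins of other clades, proteases, cornified envelope, gp130 pathway and injury. Red and blue points passed an adjusted p of 0.05 from limma. The lists were drawn up with earlier results of these data known. Of the injury genes 8 of 11 are red, and none of the other serpins is.

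Markers of other cell types that express these genes were looked at in the same libraries. Genes that define T and natural killer cells, the usual source of granzymes, summed to between 0.0353 and 0.0891 RPKM in KD and between 0 and 0.0319 RPKM in control libraries, with *Cd3e*, *Cd3d* and *Cd2* listed at 0. Keratinocyte and other epithelial markers summed to 8.88 to 30.7 RPKM in KD and 7.07 to 10.7 RPKM in control libraries, nearly all from *Krt19* (27.7, 30.1 and 8.30 RPKM in KD, log2 fold change 1.11, adjusted p = 0.091 from limma), with *Krt5* listed at 0. Macrophage markers summed to 7.46 to 18.4 RPKM in KD and 9.94 to 30.5 RPKM in control libraries, *Cd68* was higher (1.05, adjusted p = 0.023 from limma, up to 0.095 with single libraries left out), *Lyz2* was not called (-1.45, adjusted p = 0.17), and *Ptprc* stayed below 0.05 RPKM. Below the filter, *Csf1r* had every KD library above every control, with means of 1.30 and 0.514 RPKM. *Cd14*, with means of 0.591 and 0.904 RPKM, and *Ptprc* had every KD library below every control. Whether cells that carry these markers contribute to the values of the 9 genes was not tested. The adipocyte markers *Adipoq* and *Fabp4* were abundant in all libraries, at 632 to 1247 and 2829 to 4243 RPKM. Of 8 adipocyte markers, 1 was called lower, beside 12.4% of all genes tested. It was the adipogenic factor *Cebpa* (log2 fold change -0.89, adjusted p = 0.038 from limma). At an unadjusted p under 0.05 from limma 6 were lower, without a share over all genes to set beside it. *Adipoq* had every KD library below every control, with a ratio of 0.696 (-0.55, adjusted p = 0.069). Of 7 progenitor markers, 5 were tested, and 1 was called lower, *Pdgfra* (-0.69, adjusted p = 0.010 from limma). The 4 not called went both ways, with *Cd34* (0.17) and *Col1a1* (0.050) above 0 and *Ly6a* (-0.36) and *Thy1* (-0.063) below. Of 6 brite markers, 3 were called lower, beside 12.4% over all genes tested. At an unadjusted p under 0.05 from limma 5 were lower, again without a share over all genes. The 3 called were *Ucp1*, the thermogenic uncoupler (-1.21, adjusted p = 0.048 from limma), *Elovl3* (-0.81, adjusted p = 0.0064) and *Ppargc1a* (-0.55, adjusted p = 0.049). With single libraries left out, the adjusted p from limma reached 0.12 for *Cebpa*, 0.058 for *Pdgfra* and 0.17 for *Ppargc1a*. *Ucp1* was called only without NC ctrl replicate 2, with 0.026 to 0.16 over the 6 fits, whereas *Elovl3* was called with every library left out (limma adjusted p up to 0.049). The part of these differences in the values of the 9 genes was not tested.

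The genes whose pattern over the 6 libraries was most like that of *Serpinb6b* were *Umps*, *Cct6a*, *Nqo1*, *Psip1* and *Mtap*, with Pearson's r between 0.9974 and 0.9993 of log2(RPKM + 1). *Nqo1*, a quinone reductase, had 9.49, 10.1 and 7.51 RPKM in KD and 3.84, 4.38 and 3.92 RPKM in control libraries. For *Sprr1a* they were *Maoa*, *Eif5*, *Pkp2*, *Gdf10* and *Ddx6*, with r between 0.9978 and 0.9991, and *Maoa*, the monoamine oxidase A, had 32.9, 27.2 and 19.3 RPKM in KD and 10.9, 10.4 and 10.8 RPKM in controls. These values describe likeness over 3 libraries a group that all share the same split between KD and control, and carry no test.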

How the data were processed

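Total RNA of 6 libraries (TruSeq Stranded Total RNA, per the labels) was sequenced, 3 Ctcflos KD and 3 NC ctrl, grouped and numbered by their titles. The authors deposited 1 table of RPKM per transcript accession of RefSeq, Ensembl and GenBank, with 168326 lines. For the splice analysis of these libraries the methods name alignment with STAR to GRCm38; how the reads were counted for this table, and whether strand was used, is not given in the sources used here. Exact repeats (305 lines) were removed, and RPKM was averaged over the accessions of a symbol. Values were tested as log2(RPKM + 1) with limma-trend (limma 3.58.1, R 4.3.3) for symbols with a mean of at least 1, with Benjamini-Hochberg adjustment over all 11701 and calls at an adjusted p under 0.05. The unit expected in planning was found. Low RPKM values of Ensembl transcripts with a Gencode vM21 length are whole multiples of 1 read (94.7 to 95.2% within 0.03 of a whole number), which gave the depth: 75.5, 75.1 and 60.7 mio in KD and 77.9, 79.2 and 62.9 mio in control libraries.

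The genes and all lists were chosen with earlier results of these data known. Named are the 9 genes, other *Serpinb* symbols with a mean of at least 1, up to 4 called and the 2 most abundant genes of each list, and the 5 symbols most correlated with *Serpinb6b* and *Sprr1a*; any others were named after their values were seen. Sequences come from Gencode vM21 transcripts (GRCm38) and the RefSeq promoter table (GRCm38.p6), in which 7 of the 9 genes matched, and coding sequences were aligned with Biopython 1.88. Figures used matplotlib 3.10.9. Alternatives were a pseudocount of 0.1, no filter, the replicate number as a block, median-of-ratios scaling, RefSeq accessions alone, and each library left out. One gene of the list of other serpins is not reported here by name, but stays in its counts.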

Additional observations from a re-analysis of the deposited data

How the results depend on the processing

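The ratios of the 9 genes kept their direction under every alternative run. With a pseudocount of 0.1 the log2 fold changes of *Serpinb6b*, *Serpinb2*, *Serpinb9b* and *Sprr1a* moved to 2.92, 1.41, 1.00 and 3.53, as that scale shrinks low values less. Without the filter 1807 genes were called, 750 of them higher, and with the replicate number as a block 1671, 746 of them higher. The numbers called without the filter were 1 for proteases, 2 for the cornified envelope, 4 for gp130 and 3 for injury genes, and with the block 1 for proteases, 4 for injury genes and 1 for neighbours. With the block, *Ctcflos* had a log2 fold change of -0.66 with an adjusted p of 0.11 from limma. Same-numbered libraries deviated from their group means with correlations of 0.287, -0.288 and -0.418. With 3 libraries a group, these values cannot decide whether the numbers pair the libraries. Both libraries numbered 3 had the lowest depth of their group (60.7 mio in KD and 62.9 mio in control).

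With each library left out in turn, 369 to 4810 genes were called, 130 to 2727 of them higher; the lowest was without NC ctrl replicate 3 and the highest without KD replicate 3. The ranges were 5 to 8 for the chosen genes called higher, 0 to 1 for other clade B serpins, 1 to 4 for other serpins, 1 to 9 for proteases, 0 to 3 for the cornified envelope, 1 to 8 for gp130, 2 to 10 for injury genes, 0 to 5 for neighbours, and -0.72 to -0.63 for the log2 fold change of *Ctcflos*. The sign turned, at values that were not called, for *Ctsb* without KD replicate 3 (range -0.21 to 0.028), *S100a6* without KD replicate 1, KD replicate 3 or NC ctrl replicate 3 (-0.13 to 0.023), *Tubb2a* without NC ctrl replicate 2 (-0.13 to 0.026), *Ly6a* without KD replicate 3 (-0.62 to 0.031), and *Col1a1* without KD replicate 1 or NC ctrl replicate 2 (-0.51 to 0.42). The causes were not tested. Of the other values of single genes that were not chosen, 333 kept their call, 108 lost it and 10 gained it. The depth leaves *Serpinb9d*, *Serpinb9f* and *Serpinb9g* at few reads in controls.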
